A study of Danio rerio with 5 samples.

Results

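Chemokines and their receptors were examined by RNA sequencing in regenerated tissue of the zebrafish caudal fin. The genes were chosen by name alone. A row of the gene tables was taken where its name began with ccl or cxcl, for ligands, or with ccr, cxcr, xcr or ackr, for receptors, followed by a digit or a hyphen. This gave 77 of the 31540 genes, of which 51 were ligands and 26 receptors. The ligands were 35 of the CC class and 16 of the CXC class. The receptors were 12 of the CC class, 8 of the CXC class, 2 of the XC class and 4 atypical receptors.

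The series concerns regenerating fins at 1 and 3 days after amputation. All 5 libraries were labelled as regenerated caudal fin tissue, 3 with the treatment 24h and 2 with the treatment Control. The labels do not say how the Control fins were treated or at what time they were taken, and they give no strain, age, genotype or number of animals per library. Every value below therefore compares the libraries labelled 24h with those labelled Control. Nothing in the labels ties a library to its own animal or pool. The p-values thus rest on differences among these samples alone, and such differences may be technical.

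Chemokines are small secreted proteins that direct the movement of cells, above all leukocytes. Most of them bind receptors of the seven-pass membrane family that couple to inhibitory G proteins. Atypical receptors bind chemokines without this coupling and take them up, which shapes the gradient that other cells read. In zebrafish, Cxcl12a guides migrating cells such as the lateral line primordium through Cxcr4b, and Ackr3b removes Cxcl12a behind them.

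The libraries held between 14958600 and 22341452 reads in genes. Summed over each marker list, levels in CPM (reads scaled to a common library size) were 57040 to 76240 in the 24h libraries against 54720 to 62320 in the Control libraries for epidermis. Of the 16 epidermal markers tested, 7 were higher and 2 lower, or 43.8% and 12.5%. Over all genes tested, 9.43% were higher and 14.8% lower. Without the most abundant, krt5, the epidermal markers summed to 36690 to 50540 CPM against 26900 to 29210. The sums for fibroblasts, osteoblasts and endothelium lay further apart. Fibroblast markers summed to 8471 to 11620 CPM against 45280 to 46190, osteoblast markers to 171 to 225 against 11360 to 11580 (146 to 203 against 774 to 776 without col10a1a), and endothelial markers to 41.3 to 46.0 against 261 to 272. Lower were 12 of 15 fibroblast, 7 of 10 osteoblast and 15 of 17 endothelial markers tested, and none was higher. Markers of blastema and wound epidermis, the growth zone and its cover, summed to 11180 to 16440 CPM in the 24h libraries against 2266 to 4017 in the Control libraries, and 10 of the 11 tested were higher. Macrophage markers summed to 642 to 1499 against 1272 to 1414, neutrophil markers to 86.5 to 117 against 110 to 120, and T cell markers to 42.5 to 77.4 against 155 to 186. The macrophage and neutrophil sums overlapped between the groups only with their most abundant marker. Without cd74b the macrophage markers summed to 290 to 400 CPM against 516 to 519, and without srgn the neutrophil markers to 19.1 to 32.6 against 49.3 to 49.9. T cell markers without their most abundant, runx3, summed to 23.5 to 48.4 CPM against 75.6 to 97.8. Called lower were 6 of 13 macrophage, 2 of 8 neutrophil and 3 of 9 T cell markers tested. These were 46.2%, 25% and 33.3%, beside 14.8% of all genes tested. Their median log2 fold changes were -0.52, -0.94 and -1.28, and none of these markers was called higher. Among neutrophil markers lyz was at 0.158 CPM or less in every library, and among B cell markers rag1 had no reads in any library. In 24h replicate 3, 1.52% of all genes tested were at least 5-fold below both other 24h libraries, beside 0.541% in 24h replicate 1 and 0.42% in 24h replicate 2, and the chemokine genes among them are given near the end. In bulk samples, fewer cells of a type and less RNA per cell cannot be told apart, and the part of these markers in the results below was not tested.

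Most of the chemokine genes that passed the test were lower in the 24h libraries. After the filter on low counts, 33 ligands and 22 receptors could be tested among 19034 genes, with edgeR's quasi-likelihood F test and an adjusted p under 0.05 as the threshold. Of the 33 ligands, 15 were lower, 1 was higher and 17 did not pass. Of the 22 receptors, 7 were lower, 2 were higher and 13 did not pass. Over all genes tested, 14.8% were lower and 9.43% higher. The ligands came to 45.5% and 3.03%, and the receptors to 31.8% and 9.09%. Some members called lower would not have met the filter without the Control libraries. Among them were ccl25b, ccl44, ccl33.3, ccl19b, ccr7, ccr9b, CXCL11 (1 to many)_2 and XCR1 (1 to many). With no low-count filter, 33.3% of the ligands and 26.9% of the receptors were lower, beside 11.2% of all genes. In that setting 2.08% and 15.4% were higher, beside 6.95%. The median log2 fold change was -1.47 for the tested ligands and -0.72 for the tested receptors, beside -0.0043 for all genes tested. Every 24h library lay below both Control libraries for 24 ligands and 12 receptors, where this held for 29.1% of all genes tested. Every 24h library lay above both for 1 ligand and 5 receptors, beside 27.7% of all genes tested. The number of ligands called lower dropped to 7 without Control replicate 1, and that of receptors called lower was 2 without either Control library. Calls were fewer over all genes too. Without Control replicate 1, 21.2% of the ligands and 9.52% of the receptors tested were lower, beside 7.03% of all genes, and without Control replicate 2 it was 40% and 9.09%, beside 8.02%.

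**Figure D1:**
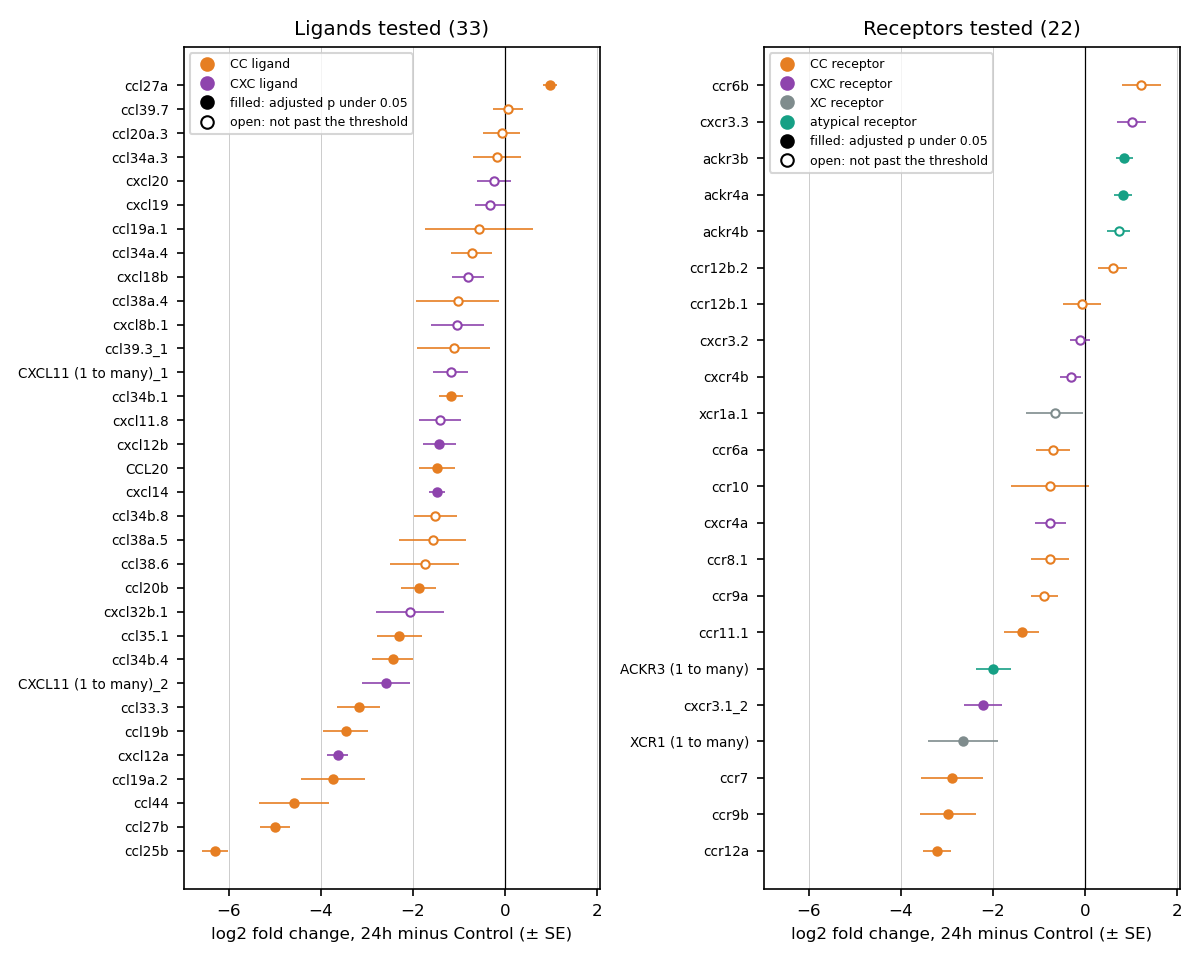
Log2 fold change, 24h minus Control, of the 33 ligands (left) and 22 receptors (right) that were tested, with bars for ± 1 SE and filled points for an adjusted p under 0.05. Most ligands lie left of 0 and ccl27a is the filled point on the right, while the filled receptors on the right are ackr3b and ackr4a.

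One ligand gene made up most of the ligand transcripts in the 24h libraries. Compared per length, as the deposited TPM, ccl27a was at 923 ± 64.7 (SD, n = 3) in the 24h libraries against 512 ± 0.88 (SD, n = 2) in the Control libraries. CCL27 is known in mammals as a chemokine of the skin that draws T cells carrying the receptor CCR10. The TPM summed over all 51 ligands was 1163 ± 119 (SD, n = 3) in the 24h libraries against 1291 ± 140 (SD, n = 2) in the Control libraries, ranges that overlap. The share of ccl27a in that sum was 79.5% ± 3.3 (SD, n = 3) in the 24h libraries against 39.9% ± 4.26 (SD, n = 2) in the Control libraries. Mean shares in the sum, 24h against Control, were 0.113% against 7.84% for ccl27b, 0.0787% against 6.06% for ccl25b, 0.33% against 4.27% for ccl19a.2 and 2.72% against 7.28% for cxcl14.

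**Figure D2:**
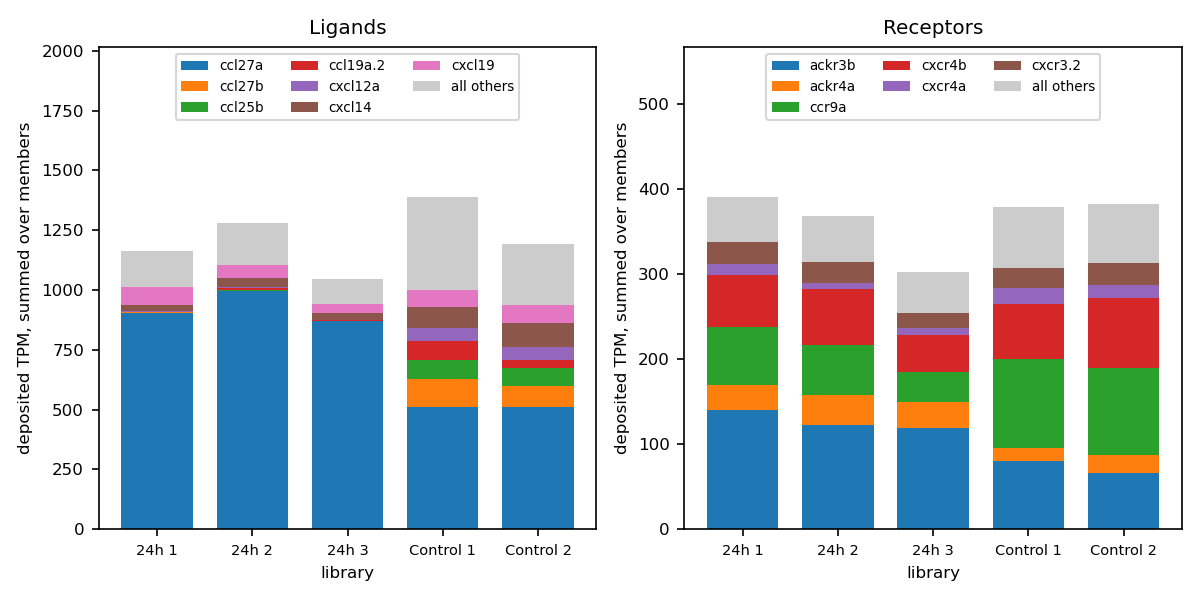
Deposited TPM of chemokine ligands (left) and receptors (right), stacked and summed within each library, with named genes in colour and all other members in grey. In all 3 24h libraries ccl27a fills most of the ligand bar, and ackr3b takes a larger part of the receptor bar than in either Control library.

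The 2 genes named after CCL27 moved in opposite directions. On chromosome 8 (1104272 to 1118203, GRCz10), ccl27a was at 267, 240 and 201 CPM in the 24h libraries against 119 and 121 CPM in the Control libraries. All 24h values lay above both Control values, and the log2 fold change was 0.98 ± 0.15 (SE, adjusted p = 0.00407). On chromosome 10 (2641806 to 2644104), ccl27b was at 0.83, 0.59 and 0.39 CPM in the 24h libraries against 23.7 and 16.02 CPM in the Control libraries, with a log2 fold change of -4.99 ± 0.32 (SE, adjusted p = 6.74e-05). The groups of ccl27b lay far apart, and the Control level was 31.9-fold higher. The receptor gene ccr10 did not pass. It was at 6.51, 4.28 and 0.325 CPM in the 24h libraries against 6.81 and 5.87 CPM in the Control libraries, so that 1 of the 24h libraries stood far below the others.

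Among the CXC ligands, the genes of the Cxcl12 group and cxcl14 were lower. On chromosome 13 (30673917 to 30689265), cxcl12a was at 4.99, 7.79 and 4.48 CPM in the 24h libraries against 73.1 and 70.9 CPM in the Control libraries. The Control libraries were close to each other and far above every 24h library, with a log2 fold change of -3.63 ± 0.23 (SE, adjusted p = 6.74e-05), or 12.4-fold. Its paralogue cxcl12b had a lower level, at 0.636, 1.02 and 0.714 CPM in the 24h libraries against 2.01 and 2.31 CPM in the Control libraries. The log2 fold change of cxcl12b was -1.43 ± 0.36 (SE, adjusted p = 0.0269), and its adjusted p was 0.0587 without 24h replicate 1, 0.129 without Control replicate 1 and 0.157 without Control replicate 2. CXCL14, which is made by epithelia such as skin in mammals, has its zebrafish gene on chromosome 14 (24103554 to 24113428). It was at 25.8, 31.7 and 21.8 CPM in the 24h libraries against 68.5 and 79.1 CPM in Control, a log2 fold change of -1.48 ± 0.17 (SE, adjusted p = 0.00112). The groups did not overlap for any of these 3 genes. Summed over the 16 CXC ligands, the TPM was 122 ± 25.2 (SD, n = 3) in the 24h libraries against 293 ± 4.28 (SD, n = 2) in the Control libraries, with no overlap.

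The signalling receptors of Cxcl12 did not pass the test. In the 24h libraries cxcr4b was at 52.6, 49.2 and 31.2 CPM and in the Control libraries at 48.5 and 61.6 CPM, ranges that overlap, with a log2 fold change of -0.31 ± 0.23 (SE, adjusted p = 0.373). Its paralogue cxcr4a was at 11.7, 5.34 and 6.69 CPM in the 24h libraries against 14.8 and 11.8 CPM in the Control libraries, with a log2 fold change of -0.75 ± 0.33 (SE, adjusted p = 0.146). Without 24h replicate 1, cxcr4a passed the threshold (log2 fold change -1.16, adjusted p = 0.0183). Whether ligand and receptor differ in their change was not tested. The atypical receptors that bind Cxcl12 went in opposite directions. On chromosome 6 (15625042 to 15630927), ackr3b was at 142, 108 and 103 CPM in the 24h libraries against 70.8 and 58.2 CPM in the Control libraries. Every 24h library was above both Control libraries, and the log2 fold change was 0.86 ± 0.18 (SE, adjusted p = 0.0140). The row listed as ACKR3 (1 to many), on chromosome 9 (24232911 to 24239388), was at 2.20, 2.50 and 5.52 CPM in the 24h libraries against 12.5 and 14.1 CPM in the Control libraries. It was lower in each 24h library, with a log2 fold change of -1.99 ± 0.38 (SE, adjusted p = 0.0106). Both calls rested on having 2 Control libraries: the adjusted p was 0.0513 and 0.106 for ackr3b and 0.0550 and 0.0599 for the ACKR3 row without Control replicate 1 and 2 in turn.

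**Figure D3:**
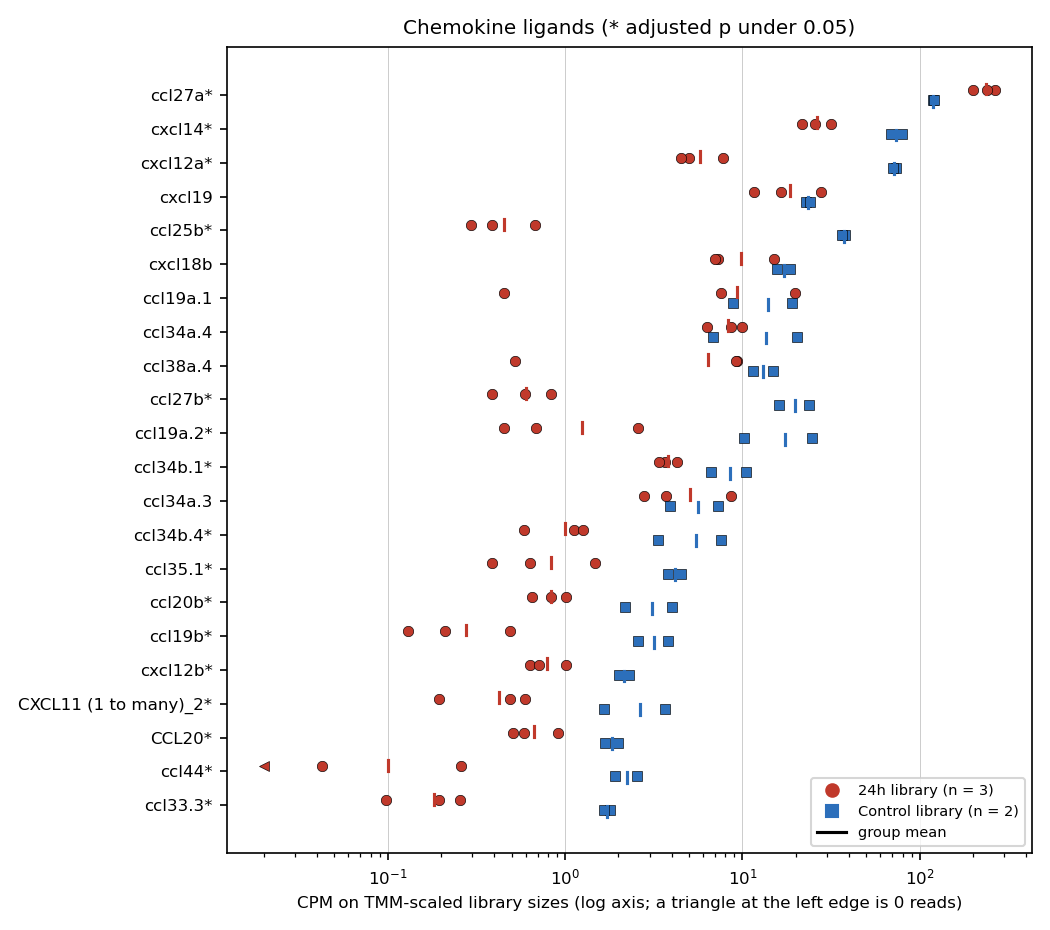
Levels in CPM (log axis) of the chemokine ligands that passed the test or averaged 5 CPM or more, with a circle for each 24h library, a square for each Control library and a line at each group mean. For ccl25b, ccl27b and cxcl12a the circles lie far left of the squares, while for ccl27a they lie to the right.

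Genes of the Ccl25 and Ccl19 axes, which in mammals guide lymphocytes to thymus, gut and lymph nodes, were among those with the largest differences. On chromosome 11 (6264427 to 6268468), ccl25b was at 0.294, 0.677 and 0.390 CPM in the 24h libraries against 37.9 and 36.7 CPM in the Control libraries. This was 78.9-fold, a log2 fold change of -6.30 ± 0.28 (SE, adjusted p = 1.81e-05), the largest among the 55 members tested. The receptor of CCL25 in mammals is CCR9, which has a pair of genes in the tables. The more abundant one, ccr9a, was at 64.2, 47.8 and 28.8 CPM in the 24h libraries against 87.0 and 85.9 CPM in the Control libraries. All 24h values of ccr9a were below both Control values, yet its log2 fold change of -0.88 ± 0.30 (SE, adjusted p = 0.0736) did not pass. It passed without 24h replicate 1 (adjusted p = 0.0267), without 24h replicate 3 (adjusted p = 0.0403) and also by DESeq2's test (adjusted p = 0.0320). The rarer ccr9b was at 0.147, 0.0847 and 0.0649 CPM against 1.06 and 0.593 CPM and was lower, with a log2 fold change of -2.97 ± 0.60 (SE, adjusted p = 0.0123), which was 0.171 without Control replicate 1.

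The Ccl19 genes had 3 tested copies, and 2 of them were lower. For ccl19b the 24h libraries were at 0.489, 0.212 and 0.130 CPM and the Control libraries at 3.8 and 2.57 CPM, a log2 fold change of -3.46 ± 0.50 (SE, adjusted p = 0.00282). For ccl19a.2 the 24h libraries were at 0.685, 2.58 and 0.454 CPM and the Control libraries at 24.7 and 10.2 CPM. The groups of both genes lay apart, and the log2 fold change of ccl19a.2 was -3.74 ± 0.69 (SE, adjusted p = 0.0117). Its adjusted p was 0.0538 without 24h replicate 1 and 0.0839 without Control replicate 1. The model of ccl19a.1 spans that of ccl19a.2 on the same strand. It was at 7.58, 19.9 and 0.454 CPM in the 24h libraries against 19 and 8.90 CPM in the Control libraries, so the groups overlapped and no difference passed (adjusted p = 0.763). The receptor gene ccr7, which responds to CCL19 in mammals, was lower at 0.147, 0.677 and 0.0649 CPM against 2.53 and 2.31 CPM. Its log2 fold change was -2.89 ± 0.67 (SE, adjusted p = 0.0205), with an adjusted p of 0.0554 without 24h replicate 1, 0.120 without Control replicate 1 and 0.0852 without Control replicate 2.

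ACKR4 is the atypical receptor that takes up CCL19, CCL21 and CCL25 in mammals. In the zebrafish libraries ackr4a was higher, at 17.7, 21.5 and 18.0 CPM in the 24h libraries against 9.08 and 12.5 CPM in the Control libraries. The groups did not overlap, and the log2 fold change was 0.83 ± 0.20 (SE, adjusted p = 0.0232), with an adjusted p of 0.0712 without 24h replicate 2 and 0.185 without Control replicate 1. Its paralogue ackr4b was at 21.0, 18.8 and 32 CPM against 13.8 and 14.9 CPM. It missed the threshold at a log2 fold change of 0.74 ± 0.24 (SE, adjusted p = 0.0664) and passed it in DESeq2 (adjusted p = 0.0340). Only 27.6% of its reads were unique, and on unique reads the log2 fold change was 0.55 (adjusted p = 0.198). The model of ackr4b lies inside that of acad11 on the opposite strand, and whether reads were counted by strand is not given in the sources used here. Over the 4 atypical receptors, the summed TPM was 176 ± 5.67 (SD, n = 3) in the 24h libraries against 111 ± 4.80 (SD, n = 2) in the Control libraries. Over the 12 CC receptors it was 76.7 ± 22.9 (SD, n = 3) against 143 ± 6.24 (SD, n = 2), and over all 26 receptors 354 ± 45.9 (SD, n = 3) against 380 ± 2.51 (SD, n = 2). In that last sum ackr3b made up 36.1% ± 2.91 (SD, n = 3) against 19.2% ± 2.87 (SD, n = 2), and ccr9a 15% ± 2.84 (SD, n = 3) against 27.2% ± 0.493 (SD, n = 2).

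**Figure D4:**
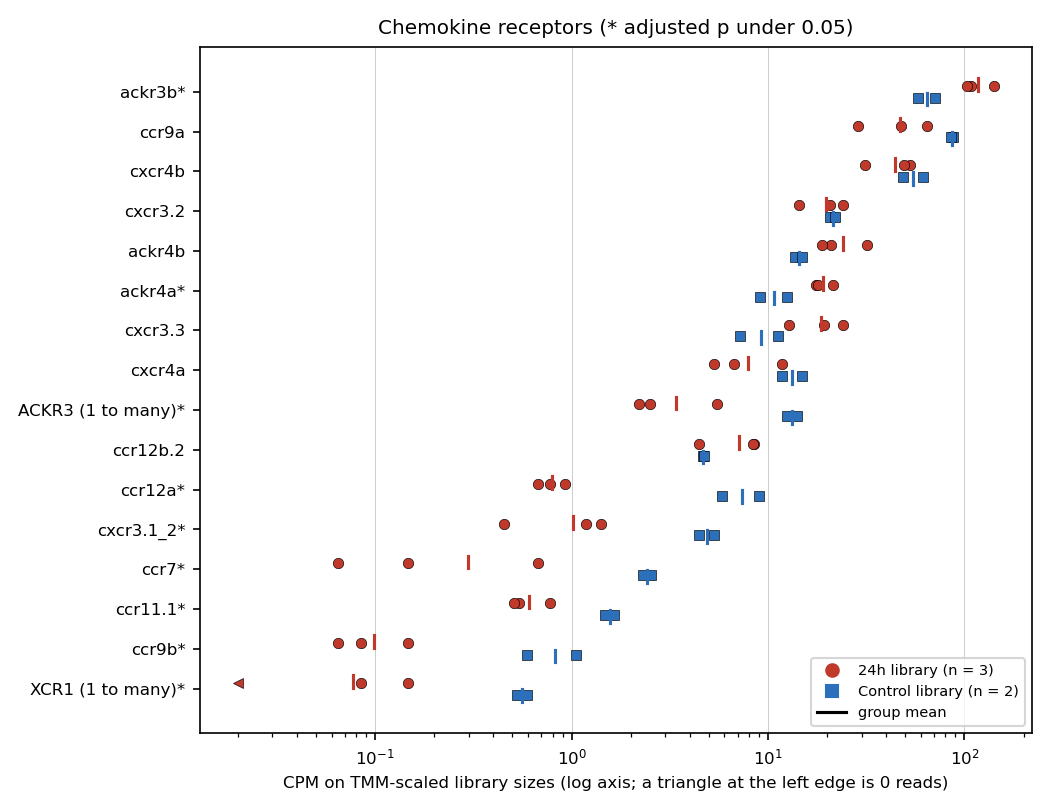
Levels in CPM (log axis) of the chemokine receptors that passed the test or averaged 5 CPM or more, with circles for 24h libraries, squares for Control libraries and lines at group means. Circles lie right of the squares for ackr3b, ackr4a and ackr4b and left of them for ccr12a, ccr7 and cxcr3.1_2.

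Ligands of the neutrophil axis were measured without a call. In zebrafish Cxcl8 and Cxcl18b draw neutrophils through Cxcr2. The receptor gene cxcr2 was too rare to test, with 2 reads at 24h and 2 in Control. So was the ligand cxcl8b.3, with 7 reads at 24h and 5 in Control. In the 24h libraries cxcl18b was at 15.2, 7.28 and 7.01 CPM and in the Control libraries at 15.6 and 18.6 CPM, a log2 fold change of -0.80 ± 0.35 (SE, adjusted p = 0.141). All 24h values were below both Control values, the first by little, and without 24h replicate 1 the gene passed (log2 fold change -1.26, adjusted p = 0.00674). For cxcl8b.1 the values were 1.47, 0.677 and 3.25 CPM against 3.06 and 4.09 CPM, which overlap (adjusted p = 0.234, and 0.0289 without 24h replicate 3). The CXC ligand cxcl19, the most abundant of its class per length in the 24h libraries at 54.6 TPM, was at 27.8, 16.6 and 11.6 CPM against 22.8 and 24.1 CPM, which overlap (adjusted p = 0.517). Of the 8 neutrophil markers tested, 2 were lower, or 25% beside 14.8% of all genes tested. They were csf3r (log2 fold change -1.23, adjusted p = 0.00479) and ncf1 (-0.997, adjusted p = 0.0333). The others did not pass: mpx (-1.26), npsn (-1.09) and il6r (-0.87) were negative, and srgn (0.31), cpa5 (0.50) and illr4 (0.07) positive. The part of these markers in the values above was not tested.

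The Cxcr3 genes on chromosome 16 did not move alike. CXCR3 answers CXCL11 in mammals. In zebrafish, Cxcr3.2 directs macrophages and Cxcr3.3 takes up its ligands. In the 24h libraries cxcr3.3 was at 24.0, 19.3 and 12.8 CPM and in the Control libraries at 7.18 and 11.3 CPM. Every 24h value was above both Control values, but the log2 fold change of 1.03 ± 0.31 (SE, adjusted p = 0.0533) missed the threshold, which it passed on unique reads (adjusted p = 0.0489), in DESeq2 (adjusted p = 0.0125) and without 24h replicate 3 (adjusted p = 0.0156). For cxcr3.2 the values were 24.2, 20.8 and 14.4 CPM against 20.7 and 22.02 CPM, which overlap (adjusted p = 0.754). The copy listed as cxcr3.1_2 was lower, at 1.42, 1.19 and 0.454 CPM against 4.43 and 5.34 CPM, a log2 fold change of -2.22 ± 0.42 (SE, adjusted p = 0.00899, and 0.0597 without Control replicate 2). Of the ligands, CXCL11 (1 to many)_2 was lower at 0.489, 0.593 and 0.195 CPM against 3.64 and 1.65 CPM. Its log2 fold change was -2.58 ± 0.52 (SE, adjusted p = 0.0124), and 0.150 was the adjusted p without Control replicate 1. Its neighbour CXCL11 (1 to many)_3 was too rare to test, with 3 reads at 24h and 23 in Control. The ratio of its pooled reads, scaled for depth, was 13.4 with a 95% counting interval of 4.04 to 69.5.

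Other CC ligands that were lower carry fish names, and no role is given for them here. For ccl44 the 24h libraries were at 0, 0.0423 and 0.260 CPM and the Control libraries at 2.53 and 1.91 CPM, a fitted log2 fold change of -4.59 ± 0.76 (SE, adjusted p = 0.00517) that rests on 5 reads in the 24h libraries. For ccl33.3 they were at 0.0978, 0.254 and 0.195 CPM against 1.80 and 1.65 CPM, a log2 fold change of -3.18 ± 0.47 (SE, adjusted p = 0.00313). The groups of both genes lay apart. For ccl35.1, ccl34b.4 and ccl34b.1 the log2 fold changes were -2.29 ± 0.48, -2.43 ± 0.45 and -1.18 ± 0.26 (SE; adjusted p = 0.0139, 0.00832 and 0.0175). None of these last 3 passed without Control replicate 1, where the adjusted p was 0.0970, 0.0949 and 0.188, and ccl35.1 did not pass without Control replicate 2 (adjusted p = 0.0552) nor ccl34b.1 without 24h replicate 2 (adjusted p = 0.0565). The abundant ccl34a.4, at 8.61, 6.31 and 10.0 CPM against 20.3 and 6.86 CPM, overlapped between the groups (adjusted p = 0.270). Its log2 fold change of -0.72 became 0.27 without Control replicate 1 and -1.29, past the threshold (adjusted p = 0.0328), without Control replicate 2. The groups of ccl34a.3 overlapped too, at 3.72, 2.79 and 8.63 CPM against 7.28 and 3.89 CPM (adjusted p = 0.835).

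The genes named after CCL20, which acts on CCR6 in mammals, did not move alike. For ccl20a.3 the 24h libraries were at 1.17, 1.27 and 0.974 CPM and the Control libraries at 0.845 and 1.58 CPM. Its groups overlapped and it did not pass (log2 fold change -0.06, adjusted p = 0.925). The gene ccl20b was lower. It was at 0.832, 1.02 and 0.649 CPM in the 24h libraries against 4.01 and 2.18 CPM in the Control libraries, with a log2 fold change of -1.88 ± 0.39 (SE, adjusted p = 0.0130, and 0.163 without Control replicate 1). The row listed as CCL20 was also called, at 0.587, 0.508 and 0.909 CPM against 1.69 and 1.98 CPM (log2 fold change -1.48 ± 0.39 SE, adjusted p = 0.0322). Its model overlaps ccl34a.3 by 83298 bases on the opposite strand, and on unique reads it missed the threshold (adjusted p = 0.0894). Leaving out a library also ended this call, except for 24h replicate 3, with adjusted p between 0.0692 and 0.177. The receptor ccr6b, at 4.50, 3.22 and 2.01 CPM against 1.69 and 1.06 CPM, lay above the Control libraries in every 24h library without passing (log2 fold change 1.23 ± 0.43 SE, adjusted p = 0.0763). Its paralogue ccr6a lay below both Control libraries in every 24h library and did not pass either (log2 fold change -0.69 ± 0.38 SE, adjusted p = 0.222). Every 24h library lay above both Control libraries for 27.7% of all genes tested and below both for 29.1%. Both receptor genes were added here after their values were seen.

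The remaining receptors called were all lower. For ccr12a, on chromosome 2 (50249929 to 50251121), the 24h libraries were at 0.929, 0.677 and 0.779 CPM and the Control libraries at 9.03 and 5.80 CPM. The groups were 9.30-fold apart, a log2 fold change of -3.22 ± 0.31 (SE, adjusted p = 0.000454), the smallest p among the receptors. By contrast ccr12b.2 was at 8.46, 8.43 and 4.48 CPM against 4.65 and 4.75 CPM, which overlap (adjusted p = 0.200, and 0.0310 without 24h replicate 3). For ccr11.1 the values were 0.538, 0.508 and 0.779 CPM against 1.48 and 1.65 CPM, a log2 fold change of -1.37 ± 0.38 (SE, adjusted p = 0.0376). That call was lost in DESeq2 (adjusted p = 0.0751) and on leaving out any library but 24h replicate 3, with adjusted p between 0.0741 and 0.193. XCR1 marks a class of dendritic cells in mammals. None of the 4 dendritic cell markers tested passed: flt3 (-1.55) and batf3 (-0.12) were negative, zbtb46 (0.51) and id2a (0.92) positive. Their part in the values of the XCR1 row was not tested. The XC receptor xcr1a.1, whose listed symbol is also XCR1, held 31 reads at 24h and 27 in Control. It did not pass (log2 fold change -0.66 ± 0.62 SE, adjusted p = 0.47). The row XCR1 (1 to many) held 5 reads at 24h and 19 in Control, a fitted log2 fold change of -2.65 ± 0.76 (SE, adjusted p = 0.0424) that did not pass in DESeq2 (adjusted p = 0.0921). It could be tested under only 10 of the 14 alternatives. Without Control replicate 2 its adjusted p was 0.188.

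Several members are neighbours, within 500 kb of another member on the same chromosome, and such copies may share reads. On chromosome 25, between 12745435 and 12954454, lay 10 ligands, of which 3 could be tested and 2, ccl33.3 and ccl35.1, were lower. On chromosome 24, between 27318196 and 27433692, lay 6 ligands, of which 4 were tested and 2, ccl34b.1 and ccl34b.4, were lower. On chromosome 20 the models of ccl38a.5 and ccl38a.4 lie inside that of ccl38.6 on the same strand, and none of the 3 passed. Reads that matched only one place gave nearly the same picture. Of 54 members tested on both total and unique reads, 51 had the same call, and 6 log2 fold changes differed by over 0.1. The calls that changed were those of CCL20, cxcr3.3 and ccl34b.8, whose adjusted p went from 0.0529 to 0.0445.

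Of the 77 members, 22 were not tested, and none of these had more than 31 reads over all libraries. They were 18 ligands and 4 receptors. The ligands ccl33.2, ccl39.4 and ccl39a.10 had no reads in any library, which allows a level of up to 0.0321 CPM at a limit of 3 counts over all libraries and covers counting error only.

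One of the 24h libraries stood apart for a group of ligands and receptors. In 24h replicate 3, 8 of the 55 tested members were at least 5-fold below both other 24h libraries, or 14.5%, beside 1.52% of all genes tested. The same count was 1 member for 24h replicate 1 and 0 members for 24h replicate 2. The 8 members were ccl19a.1, ccl38.6, ccl38a.5, ccl38a.4, ccl39.3_1, cxcl32b.1, ccr10 and XCR1 (1 to many). In the 24h libraries XCR1 (1 to many) had only 3, 2 and 0 reads and ccl39.3_1 only 9, 9 and 0 reads. The models of ccl38a.5 and ccl38a.4 lie inside that of ccl38.6, so they may share reads. For ccl38a.4 the 24h libraries were at 9.34, 9.23 and 0.519 CPM and the Control libraries at 14.9 and 11.4 CPM, and the first 2 were 17.8-fold or more above the third. For ccl19a.1 the third was 16.7-fold below the lower of the other 24h values, for ccr10 13.2-fold, and for cxcl32b.1 14.3-fold. With all libraries 7 of these 8 genes did not pass, and XCR1 (1 to many) did. Without 24h replicate 3 the log2 fold change of ccl38.6 was -1.25 ± 0.37 (SE, adjusted p = 0.0516), that of ccl38a.5 -1.08 ± 0.34 (SE, adjusted p = 0.0588), that of ccl38a.4 -0.50 ± 0.21 (SE, adjusted p = 0.124) and that of ccl19a.1 -0.02 ± 0.51 (SE, adjusted p = 0.981). Beside this, T cell markers summed to 76.9, 77.4 and 42.5 CPM in the 24h libraries, or to 48.4, 48.4 and 23.5 CPM without runx3. Of the 9 tested, zap70 and il7r were as far below. Macrophage markers other than cd74b summed to 400.0, 372 and 290 CPM, and cd74b was at 1099, 826 and 352 CPM. None of the 13 macrophage markers was as far below, and no neutrophil, fibroblast, endothelial or epidermal marker was. Of the receptor signalling genes described below, wasa was as far below, at 1.76, 1.78 and 0.195 CPM in the 24h libraries. Of the genes of pathways that induce chemokines, ifng1-1 was, at 0.685, 0.762 and 0 CPM. The 289 genes with this pattern among all genes tested also include ones outside these lists. Such were gig2l, at 82.5, 91.6 and 1.95 CPM in the 24h libraries, and rsad2, at 14.9, 5.72 and 0.909 CPM. The part of any cell type or other gene in the pattern was not tested.

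**Figure D5:**
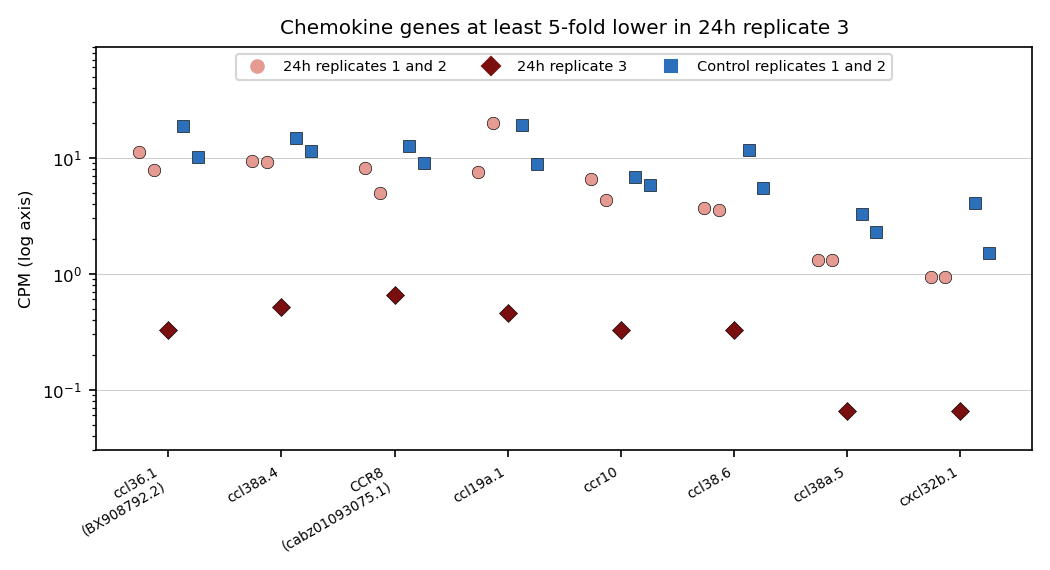
Levels in CPM (log axis) of chemokine genes at least 5-fold lower in 24h replicate 3 (diamonds) than in both other 24h libraries (circles). Control libraries are squares, and genes without reads in 24h replicate 3 are not drawn. For all 8 genes shown the diamond lies below every other point, and ccl36.1 and CCR8 are rows whose table names fall outside the name rule.

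Genes that act downstream of chemokine receptors changed in both directions. Of 42 tested genes of receptor signalling, 10 were lower and 2 were higher, or 23.8% and 4.76% beside 14.8% and 9.43% of all genes tested, and the median log2 fold change was -0.18. The smallest p-values belonged to gnai2b, an inhibitory G protein subunit (log2 fold change -1.40 ± 0.13 SE, adjusted p = 0.000379), and prex1, an activator of Rac (-1.33 ± 0.15 SE, adjusted p = 0.000897). The other inhibitory G protein genes called were gnai3 (-0.85), which was lower, and gnai2a (0.43), which was higher. Of 23 tested genes of pathways that induce chemokines, 6 were lower and 2 were higher. These were 26.1% and 8.7% beside the same 14.8% and 9.43%, with a median of -0.37. The 6 include nfkbiaa (-0.90) and nfkbiab (-0.84), which encode inhibitors of NF-kB and not inducers. The smallest p-values there were those of hif1aa, a hypoxia response factor (-1.99 ± 0.26 SE, adjusted p = 0.00189), and relb, an NF-kB subunit (-0.88 ± 0.18 SE, adjusted p = 0.0134). The level of hif1aa was low, with means of 1.12 CPM in the 24h libraries against 4.49 CPM in the Control libraries. Its far more abundant paralogue hif1ab, with means of 335 against 299 CPM, did not pass (0.17 ± 0.13 SE, adjusted p = 0.384). The gene of the cytokine interleukin 1 beta, il1b, was higher (1.04 ± 0.31 SE, adjusted p = 0.0488). Of 7 tested genes related to chemokines but outside the name rule, such as mif and cd74a, none passed in edgeR, none passed in DESeq2 and 0 had an unadjusted p under 0.05.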

How the data were processed

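Each of the 5 libraries has 1 deposited table. Per the file headers it holds whole-number counts of total, unique, exon and intron reads per gene, and the TPM that the authors computed per exon length, a value printed with decimal commas. Per the labels' protocols the RNA came from a phenol extraction and went into a TruSeq Stranded mRNA library. The build was GRCz10, per the submitters' processing notes; for the aligner, the counter and its strand setting, no name is given in the sources used here, and coordinates are those of the tables. Gene names are those of the tables, and 74 of the 77 members were also found in a list that pairs gene identifiers with symbols.

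Total gene reads of all genes and libraries were fitted in edgeR 4.0.16 (under R 4.3.3) and tested with its quasi-likelihood F test, after TMM scaling and filterByExpr, with robust dispersions and a Benjamini-Hochberg adjustment over 19034 genes at 0.05. CPM use the TMM-scaled library sizes. Standard errors are approximate and were taken as the absolute log2 fold change over the root of F. Levels of different genes are compared as TPM. The code was tested on simulated data. PCR copies were not marked, so intervals and limits cover counting error only.

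The members, lists and tests were chosen with earlier results of these data known. Named were members that passed, those with a mean of 5 CPM or more, and the Cxcl12, neutrophil and Ccl19, Ccl21 and Ccl25 axes, plus for each list the 2 genes of smallest p. Rows named cxcl8a, cxcr1, ccl25a or ackr3a are not in the name column. Other genes given were chosen after their values were seen. The alternatives were unique or exon reads, DESeq2 1.42.0, its size factors, library size alone, no low-count filter, a filter of 1 CPM in 2 libraries, limma 3.58.1 on log2(TPM + 1) or log2(TPM + 0.1), and leaving out each library. Replicate numbers follow the order of the samples and only name a library. The labels pair no libraries across the groups and name no batch, so no block was fitted.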

Additional observations from a re-analysis of the deposited data

How the results depend on the processing

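With the unique or exon reads, other scalings, filters and tools tried, 15 to 19 ligands were called lower and 1 higher, and 5 to 8 receptors lower. The number of receptors called higher was 2 or 3 in these, but 4 in DESeq2 and 4 with no low-count filter. As shares, 33.3% to 57.6% of the ligands and 26.1% to 36.4% of the receptors were lower, and 9.09% to 17.4% of the receptors higher. Over all genes tested in the same settings, 11.2% to 15.8% were lower and 6.89% to 10.2% higher. On leaving out each library in turn, 7 to 17 ligands and 2 to 8 receptors were called lower, and 0 to 5 receptors higher (0 without Control replicate 1 and 5 without 24h replicate 3). Without a 24h library, 39.4% to 51.5% of the ligands and 23.8% to 36.4% of the receptors were lower, beside 11.8% to 15.6% of all genes. In these fits 4.76% to 22.7% of the receptors were higher, beside 5.7% to 9.18% of all genes. Shares called lower without a Control library are given above. With 1 Control library left, its spread was assumed to be that of the 24h libraries. The calls of ccl19b, ccl25b, ccl27a, ccl27b, ccl33.3, ccl44, cxcl12a, cxcl14 and ccr12a were the same under all 14 alternatives. Of these alternatives, ccr9b could be tested under only 12 and XCR1 (1 to many) under only 10. Among the named members that did not pass, leaving out a library turned the sign of 4. The log2 fold change ran from -1.76 to 0.083 for ccl19a.1, from -0.79 to 0.36 for ccl34a.3 (0.13 without 24h replicate 2), from -1.29 to 0.27 for ccl34a.4 and from -0.28 to 0.075 for cxcr3.2. The other scalings of the counts moved the median of all genes by at most 0.0177. With limma on log2(TPM + 0.1) the shift was -0.0439. No paired analysis was possible because the labels pair no libraries; the replicate numbers used here only name them. With 2 Control libraries and a few reads per library for many ligands, a difference in a rare ligand may not be detectable at this depth.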

Other observations

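The table of gene names gives chemokine symbols to 6 rows that the name rule left out, and none of the 5 that could be tested passed edgeR's test. The row matched to ccr2 had too few reads to test, 1 at 24h and 6 in Control. The row matched to cxcl8a, a neutrophil chemokine, was at 2.25, 0.635 and 1.82 CPM in the 24h libraries and 1.11 and 0.593 CPM in the Control libraries, which overlap (log2 fold change 0.84 ± 0.60 SE, adjusted p = 0.347). The row matched to ACKR2 was lower in every 24h library without passing, at 0.587, 1.48 and 1.23 CPM against 2.80 and 2.70 CPM (adjusted p = 0.0547). The row matched to cxcr1 was at 0.245, 0.381 and 0.584 CPM against 0.792 and 0.725 CPM, also without overlap (adjusted p = 0.211). The rows matched to ccl36.1 and CCR8 were low in 24h replicate 3, at 0.325 and 0.649 CPM, where the other 24h libraries were at 11.2 and 7.88 CPM for ccl36.1 and 8.17 and 4.91 CPM for CCR8.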
